A study of Mus musculus with 24 samples.

Results

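The matrix metalloproteinase (MMP), ADAMTS, ADAM and tissue inhibitor of metalloproteinase (TIMP) genes were followed in RNA from mouse peritoneal samples. The series concerns peritoneal metastases, tumours that grow on the membrane around the abdominal organs. Members were chosen by gene symbol alone, as the numbered Mmp, Adamts, Timp and Adam names. This gave 72 of 56422 gene names: 22 MMP, 19 ADAMTS, 27 ADAM and 4 TIMP genes. The 24 samples fell into 4 groups of 6: untreated control, propionate, butyrate, and both acids in combination. The labels give the tissue as peritoneum and state no dose, time, mouse strain, sex, age, tumour line or anti-PD-1 treatment, although the title of the series names ovarian cancer and anti-PD-1 therapy. Nothing in them says that the 6 samples of a group came from separate animals, so p-values rest on sample-to-sample variation that may be technical.

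MMPs are zinc enzymes that cut collagens, gelatin, proteoglycans and other proteins outside the cell, and most are made as inactive proenzymes. ADAMTS enzymes are secreted relatives with thrombospondin repeats that cut proteoglycans, process procollagens or act on other matrix proteins. ADAMs sit in the cell membrane, where the active ones release growth factors, cytokines and receptors from the cell surface, while others lack the catalytic site and act in adhesion. TIMPs block MMPs, and some of them also ADAMs and ADAMTS enzymes. In tumours these genes are expressed both by cancer cells and by fibroblasts, macrophages and other stromal cells.

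Of the 36 tested members, 25 have a promoter in the RefSeq table (build GRCm38.p6). Those of Mmp3, Mmp10, Mmp11 and Mmp24 are shown as examples that hold a marked motif. Mmp10, Mmp11 and Mmp24 separated the libraries by Wt1, a gene of the mesothelium marker list, and Mmp3 lies in the same gene cluster as Mmp10. Each line gives 250 bases, 5′ to 3′, that end at the base before the transcription start. In the first pair capitals mark the AP-1 motif TGANTCA, and in the second pair the WT1/EGR1 motif GCGNGGGCG.
Mmp3 (chr9:7445572-7445821, plus strand): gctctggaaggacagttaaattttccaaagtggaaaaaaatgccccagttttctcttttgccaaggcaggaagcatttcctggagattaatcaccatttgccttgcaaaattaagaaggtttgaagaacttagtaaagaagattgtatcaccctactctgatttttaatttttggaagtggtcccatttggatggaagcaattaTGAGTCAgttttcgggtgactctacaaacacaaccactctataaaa
Mmp10 (chr9:7502092-7502341, plus strand): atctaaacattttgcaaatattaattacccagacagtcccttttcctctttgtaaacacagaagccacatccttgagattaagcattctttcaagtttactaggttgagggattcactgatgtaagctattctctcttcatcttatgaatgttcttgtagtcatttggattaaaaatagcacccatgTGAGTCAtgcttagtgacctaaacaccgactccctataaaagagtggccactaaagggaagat
Mmp11 (chr10:75932503-75932752, minus strand): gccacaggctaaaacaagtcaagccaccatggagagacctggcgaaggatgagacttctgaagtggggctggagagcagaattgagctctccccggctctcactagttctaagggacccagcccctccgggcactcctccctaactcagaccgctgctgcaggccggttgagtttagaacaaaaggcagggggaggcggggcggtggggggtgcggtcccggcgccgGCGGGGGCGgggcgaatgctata
Mmp24 (chr2:155775092-155775341, plus strand): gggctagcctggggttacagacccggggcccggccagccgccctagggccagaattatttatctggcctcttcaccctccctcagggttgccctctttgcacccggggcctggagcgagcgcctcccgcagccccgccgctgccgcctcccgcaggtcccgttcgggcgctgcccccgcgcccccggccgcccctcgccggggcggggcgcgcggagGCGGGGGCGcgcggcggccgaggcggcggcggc
The motif began 46 bases before the start of Mmp3, 63 before that of Mmp10, 23 before that of Mmp11 and 33 before that of Mmp24. Searched on both strands, TGANTCA stood in 6.75% of all 32851 promoter windows of this length, or in a window of 7.82% of genes, and in those of 4 of the 25 members (Adam19, Mmp3, Mmp10 and Mmp12). GCGNGGGCG stood in 4.70% of the windows, or 5.33% of genes, and in those of 5 members (Adam23, Adamts14, Mmp11, Mmp14 and Mmp24). The GC box GGGCGG, which can overlap GCGNGGGCG, stood in 32.7% of the windows (35.4% of genes) and in those of 17 members, and the E-box CACGTG in 6.02% (6.86% of genes) and in those of 2. Of the other members that separated the libraries by Wt1, Adamts14 held GCGNGGGCG, while Adamts9, Timp2 and Timp3 held neither it nor TGANTCA. Adamts7 had no promoter in the RefSeq table. These are matches of letters and not evidence of binding, and separation by Wt1 did not go with a motif throughout.

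The libraries differed in tissue make-up within every group. Wt1, of a list of mesothelium markers, was at 131 TPM (transcripts per 1000000) or more in 10 libraries and at 71.4 TPM or less in 14. Sums of ovary and cell cycle markers, given below, were higher in these 10 too. So were those of carcinoma and epithelium markers, combination replicate 5 apart, so Wt1 is not read as mesothelium alone. Of control, all but replicate 3 stood among the 10. Propionate gave replicates 3 and 4, butyrate only replicate 2, and the combination replicates 3 and 4. In combination replicate 5 Wt1 was at 0 while 5 carcinoma and epithelium markers summed to 748 TPM. That library held 9.14 TPM in sum of 8 skeletal muscle markers, against at least 21789 in each other library. It also held 360 TPM of 5 lymphocyte markers and 2662 TPM of 4 adipocyte markers, the highest sums of all libraries. Summed fibroblast markers, by contrast, were of like size throughout, at 1457 to 3228 TPM. Carcinoma and epithelium markers summed to 823 TPM in control replicate 2, but to 3.45 in control replicate 3 beside 85476 TPM of the skeletal muscle markers. How much of each library was tumour is thus not known. In tissue samples of this kind, fewer cells of a type and less RNA per cell cannot be told apart.

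Of the 72 members, 36 reached 1 TPM in at least 6 libraries and entered the tests: 11 MMP, 12 ADAMTS, 9 ADAM and all 4 TIMP genes. Another 28 were above 0 in some library, and their highest value was 3.15 TPM. Mmp1a, Mmp1b and Mmp20 and 5 ADAM genes (Adam18, Adam20, Adam24, Adam29 and Adam34) were listed at 0 in all 24 libraries. Inhibitor transcripts outweighed those of the MMPs: in control the 4 TIMP genes summed to 393 ± 134 TPM (SD, n = 6) and the 22 MMP genes to 220.0 ± 57.4. The 19 ADAMTS genes summed to 86.3 ± 18.0 TPM in control and the 27 ADAM genes to 157 ± 41.5. The map of levels shows that a few genes carried each family.

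**Figure D1:**
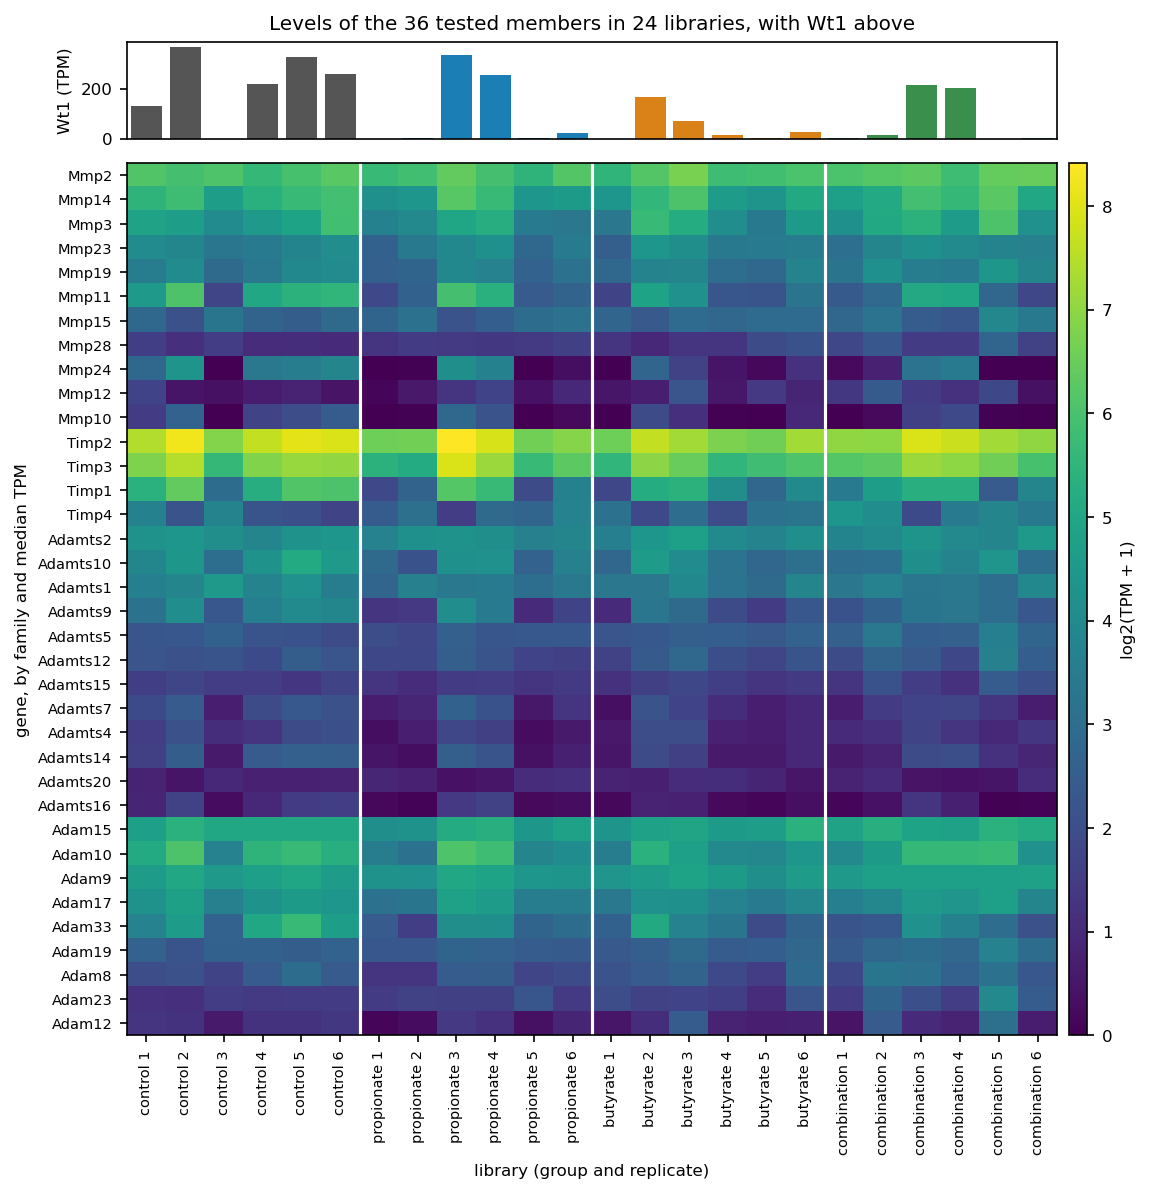
The colour gives log2(TPM + 1) of the 36 tested members (rows, by family and median level) in the 24 libraries (columns, by group and replicate), and the bars above give Wt1 in TPM. Timp2 and Timp3 are brightest, Mmp24, Mmp10 and Mmp11 change with the Wt1 bars within every group, and Mmp2 keeps nearly one colour throughout.

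A gelatinase and a membrane-type enzyme led the MMPs. Mmp2, the gelatinase A gene, was the most abundant MMP, with a lowest, median and highest TPM of 47.7, 64.2 and 75.1 in control, 43.7, 58.8 and 82.2 with propionate, 44.1, 60.9 and 104 with butyrate and 55, 75.1 and 87.8 in combination. The 4 ranges overlapped widely, and the level in TPM hardly differed between libraries rich and poor in Wt1. Mmp14 encodes MT1-MMP, the membrane enzyme that activates pro-MMP2 with TIMP2 as its partner. It was at 25, 46.8 and 59 TPM in control, 17.6, 21.9 and 74.8 with propionate, 19.7, 28.7 and 66.2 with butyrate and 26.1, 41.1 and 75 in combination (lowest, median and highest). Its highest library was combination replicate 5 at 75 TPM, next to propionate replicate 3 at 74.8. Together Mmp2 and Mmp14 held 42.9 to 67.7% of all MMP TPM in a library.

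Other membrane-type enzymes split in 2 ways. Mmp15 (MT2-MMP) stayed at 3.24 to 8.69 TPM in control, 3.5 to 8.11 with propionate, 4.15 to 6.74 with butyrate and 3.77 to 14 in combination. Mmp24 (MT5-MMP), best known from the nervous system, ran from 0 to 19.5 TPM. In control it was at 0.02 TPM in replicate 3 and at 5.94 to 19.5 in the other 5 libraries. With propionate it was at 17.2 and 11.9 TPM in replicates 3 and 4 and at 0.24 or less in the other 4. Butyrate replicate 2 held 5.75 TPM, and combination replicates 3 and 4 held 8.22 and 10.1, the highest values of their groups. Mmp16, Mmp17 and Mmp25 were below the filter.

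The stromelysins differed from one another in level. Mmp3 (stromelysin 1), which cuts proteoglycans and activates other pro-MMPs, was at 15.8, 26.4 and 57 TPM in control, 9.14, 13.3 and 37 with propionate, 9.04, 19.7 and 51.4 with butyrate and 17.6, 28.8 and 66.6 in combination (lowest, median and highest). Its highest library was again combination replicate 5. Mmp11 (stromelysin 3), often found in stroma around carcinomas, was at 2.42, 36.5 and 66.5 TPM in control, 2.64, 5.28 and 60.3 with propionate, 2.31, 6.11 and 28.8 with butyrate and 2.46, 6.09 and 32.6 in combination. Control replicate 3 held the lowest control value, and the next control library stood at 21.7 TPM. Mmp10 (stromelysin 2) was at 0 to 5.24 TPM in control and listed at 0 in 7 of the 24 libraries, control replicate 3 among them.

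Collagenase, matrilysin and elastase genes were low. Mmp13, the main rodent interstitial collagenase, did not exceed 0.70 TPM, and Mmp8, the neutrophil collagenase, did not exceed 0.42 TPM, with its highest values in combination replicates 5 and 2 (0.42 and 0.39). In the same libraries 5 neutrophil markers summed to 120.1 and 123 TPM, against 43.3 or less elsewhere. Mmp7 (matrilysin) was above 0 in 3 libraries, at up to 0.40 TPM. Mmp12, the macrophage elastase, was at 0.30, 0.47 and 2.24 TPM in control, 0.09, 0.70 and 2.24 with propionate, 0.42, 0.72 and 3.69 with butyrate and 0.31, 1.65 and 4.26 in combination (lowest, median and highest). Of the remaining MMPs, Mmp19 averaged 12 ± 3.78 TPM in control and Mmp23 13 ± 3.02 (SD, n = 6). Mmp28 (epilysin) averaged 1.39 ± 0.40 TPM in control and 2.94 ± 1.55 in combination.

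Several of these genes lie side by side. In the GRCm38 annotation Mmp13, Mmp12, Mmp1b, Mmp3, Mmp1a, Mmp10, Mmp8, Mmp27, Mmp20 and Mmp7 follow one another on chromosome 9. Mmp3 and Mmp10, on either side of Mmp1a, stood at different levels, with medians over 24 libraries of 23.5 and 0.54 TPM, and Mmp8, next to Mmp10, had a median of 0.03. In the same annotation Mmp11, Mmp24, Timp1, Timp3 and Timp4 each overlap a gene on the opposite strand, and how reads were assigned by strand is not stated.

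Of the TIMP genes, Timp2 was the most abundant member, with a lowest, median and highest TPM of 116, 223 and 302 in control, 92.6, 109 and 341 with propionate, 94.3, 129 and 198 with butyrate and 126, 141 and 247 in combination. It held 51.7 to 66.9% of the summed TIMP TPM of a library. Timp3, whose product binds to the matrix and also inhibits ADAM17 and the ADAMTS aggrecanases, was at 47.7, 122 and 178 TPM in control, 35.3, 63.6 and 244 with propionate, 45.2, 61.9 and 122 with butyrate and 61.6, 86.1 and 141 in combination. Both had their highest value in propionate replicate 3 and were low in the 4 propionate libraries poor in Wt1.

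Timp1, an inhibitor of most MMPs that is inducible in injury and inflammation, had its highest library in control replicate 2. It was at 6.8, 52.8 and 82.8 TPM in control, 2.61, 8.65 and 72.8 with propionate, 2.46, 15.9 and 41.5 with butyrate and 4.35, 18.8 and 38.9 in combination (lowest, median and highest). Propionate replicates 3 and 4 held 72.8 and 50.4 TPM and the other 4 propionate libraries 2.61 to 12. Timp4 went the other way. It was at 2.31, 3.58 and 12.5 TPM in control, 1.88, 6.06 and 12.2 with propionate, 2.6, 7.38 and 8.54 with butyrate and 2.69, 11.6 and 20.6 in combination, with its highest value in combination replicate 1.

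Per library, the summed MMP transcripts were 0.47 to 1.12 times the summed TIMP transcripts. This ratio averaged 0.58 ± 0.11 (SD, n = 6) in control, 0.65 ± 0.13 with propionate, 0.73 ± 0.11 with butyrate and 0.75 ± 0.22 in combination, and the groups overlapped. The lowest ratios were in propionate replicate 3 and control replicate 2, the 2 libraries richest in Wt1, and the highest in combination replicate 5. The TIMP sum alone averaged 393 ± 134 TPM in control, 293 ± 211 with propionate, 229 ± 82.1 with butyrate and 295 ± 90.3 in combination. As a sum over chosen members, the ratio is given as a description only.

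**Figure D2:**
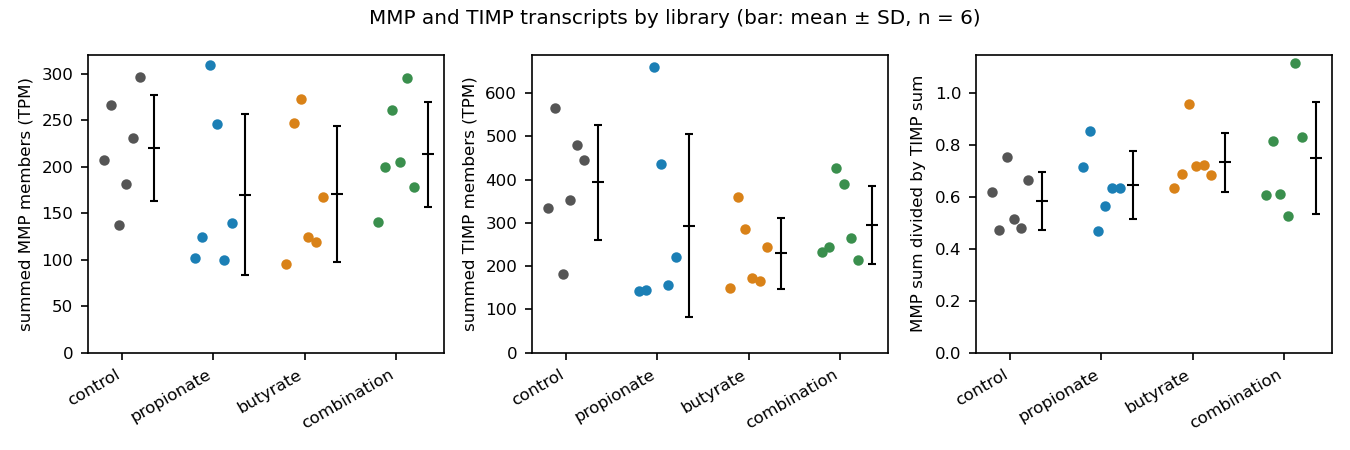
Points give each library's summed MMP TPM, summed TIMP TPM and their ratio (y axes) by group (x axis), with the mean ± SD of 6 libraries beside them. The TIMP sums of control reach 566 TPM and those of butyrate 359, and the ratio of combination replicate 5, at 1.12, lies above all other libraries.

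Several of the ADAMTS genes encode proteoglycan-cutting enzymes. Adamts1, a versican- and aggrecan-cutting enzyme, was at 10.8, 12.9 and 22 TPM in control, 5.74, 9.42 and 11.7 with propionate, 6.56, 9.09 and 14.4 with butyrate and 7.01, 9.18 and 14.3 in combination (lowest, median and highest). Adamts5, the main aggrecanase of mouse cartilage, was at 2.85, 3.65 and 5.19 TPM in control, 2.47, 3.83 and 4.92 with propionate, 3.62, 4.39 and 5.28 with butyrate and 4.69, 5.35 and 11.5 in combination. These 2 genes are neighbours on chromosome 16, and their highest libraries differed: control replicate 3 for Adamts1 and combination replicate 5 for Adamts5. Adamts4, another aggrecanase, averaged 2.29 ± 0.91 TPM in control, 1.02 ± 0.98 with propionate, 1.45 ± 1.19 with butyrate and 1.4 ± 0.51 in combination (SD, n = 6). Adamts9, which acts on versican, was at 3.86, 12.5 and 16.4 TPM in control, 0.99, 2.0 and 16.5 with propionate, 1.01, 3.38 and 8.99 with butyrate and 3.39, 6.08 and 9.16 in combination. In control 5 libraries held 7.89 TPM or more, and replicate 3 held 3.86.

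Other ADAMTS genes act on procollagens or microfibrils. Adamts2, which trims fibrillar procollagens, stayed at 13.1 to 20.6 TPM in control, 11.6 to 18.8 with propionate, 11.4 to 26 with butyrate and 12.8 to 22.3 in combination. Adamts14, of the same activity, was at 0.53 to 5.05, 0.25 to 4.79, 0.43 to 2.88 and 0.53 to 3.04 TPM. Adamts10, linked to fibrillin microfibrils, averaged 19.4 ± 9.1 TPM in control and 10.4 ± 6.36, 11.1 ± 7.05 and 11.9 ± 5.69 in the treated groups. Adamts12 averaged 3.56 ± 0.61 TPM in control and 5.26 ± 3.4 in combination, where replicate 5 held 11.8. Adamts3, Adamts6, Adamts8, Adamts13, Adamts17, Adamts18 and Adamts19 were below the filter.

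Of the ADAM genes, Adam10 and Adam17 encode well-known sheddases. Adam10, the main sheddase of Notch receptors, was at 12.4, 40.2 and 65.6 TPM in control, 7.88, 14.7 and 68 with propionate, 10.7, 17.4 and 40.4 with butyrate and 14.6, 35.5 and 51.5 in combination (lowest, median and highest). Adam17, which releases TNF and ligands of the EGF receptor, was at 11.8, 19.7 and 26.6 TPM in control, 7.83, 10.8 and 27.4 with propionate, 9.42, 13.2 and 18.1 with butyrate and 11.3, 16.8 and 26.1 in combination. Both were high in propionate replicates 3 and 4 and low in the other propionate libraries. Adam9 and Adam15 varied less, averaging 26.3 ± 3.56 and 32.3 ± 4.61 TPM in control (SD, n = 6).

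Lower in level were Adam8, a leukocyte ADAM, and the meltrins Adam12 and Adam19. Adam8 averaged 4.0 ± 1.6 TPM in control and 6.02 ± 2.5 in combination, Adam12 1.27 ± 0.38 and 2.44 ± 2.9, and Adam19 4.84 ± 0.69 and 6.96 ± 2.7. The median of Adam12 was lower in combination, at 0.915 TPM against 1.365 in control, with 15 of 36 pairs higher. Its mean there rested on replicates 5 and 2, at 7.54 and 4.32 TPM. Adam33 was at 5.23, 24.6 and 50.6 TPM in control, against 1.97, 6.22 and 17.4 with propionate, 2.89, 7.01 and 33.7 with butyrate and 3.21, 5.55 and 18.1 in combination. Adam23, which lacks the catalytic site and acts in adhesion, was at 1.27, 1.74 and 1.9 TPM in control and 1.81, 3.81 and 14.5 in combination, where replicate 5 stood far above the rest. Several ADAM genes below the filter are known from the testis, among them Adam2 and Adam3, which did not exceed 0.06 and 0.09 TPM.

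Set beside Wt1, the members fell along a range. Other markers divided the same libraries: 5 ovary markers summed to 47.9 to 153 TPM in the 10 rich in Wt1 and to 25.7 or less in the 14, and 4 cell cycle markers to 52.2 to 163 and 31.6 or less. Carcinoma and epithelium markers summed to 289.7 to 823 TPM in the 10 and to 138 or less in the 14 except combination replicate 5. The part of each tissue in the levels was not tested. In 8 of the 36 the 10 libraries rich in Wt1 all lay above the other 14, as did 10.2% of all 15163 tested genes, and in none did they all lie below (0.257% of all genes). The 8 were Mmp10, Mmp11, Mmp24, Timp2, Timp3, Adamts7, Adamts9 and Adamts14. Mmp11 was at 21.7 to 66.5 TPM in the former and 2.31 to 18.3 in the latter, and Timp2 at 174 to 341 and 92.6 to 153. Timp1 overlapped through butyrate replicate 3, which held 41.5 TPM with 71.4 TPM of Wt1. The median of the former libraries was the higher for 30 of 36 members, against 77.3% of all genes.

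Other members did not run with Wt1 on the TPM scale. Mmp2 had medians of 64.8 TPM in the 10 libraries and 64.2 in the 14. Mmp15, Mmp28, Adam23, Adamts5, Adamts20 and Timp4 had the lower median in the libraries rich in Wt1, Timp4 at 3.36 against 8.15 TPM and Mmp28 at 1.41 against 1.96. These libraries were set apart by Wt1 and are not groups of the study, so the values are a description. Median-of-ratios scaling, used below, divides the 10 by 1.086 to 1.486 and the 14 by 0.668 to 1.026, except combination replicate 5 (1.477). On that scale the 10 would stand lower beside most of the 14 than they do in TPM. The split was not repeated there.

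**Figure D3:**
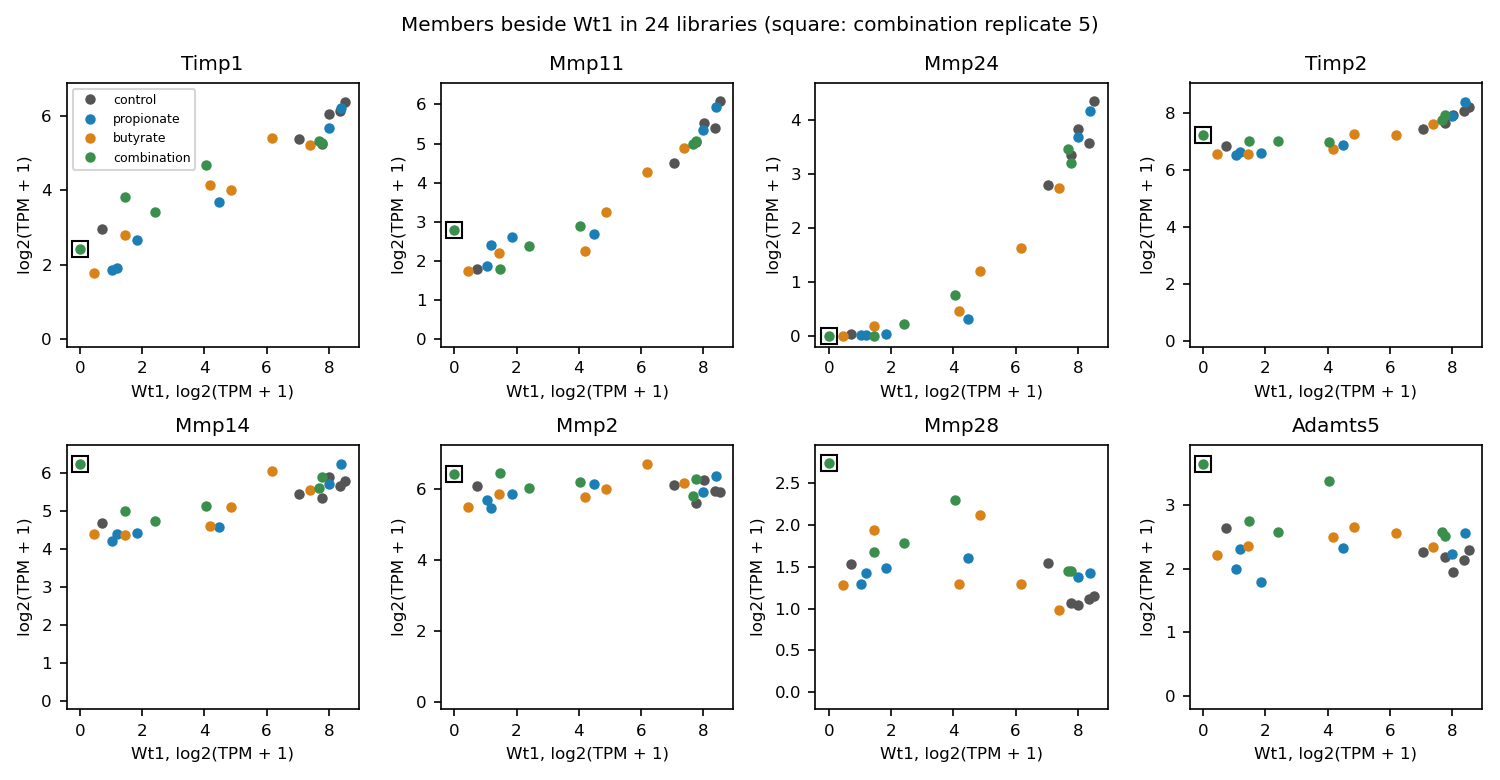
Each panel plots 1 member against Wt1, both as log2(TPM + 1), with 24 libraries coloured by group and combination replicate 5 boxed. Mmp11, Mmp24 and Timp2 are higher in the libraries rich in Wt1 in all 4 groups, Mmp2 is flat, and Mmp28 and Adamts5 peak in combination replicate 5.

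Propionate and control libraries were compared for the effect of that acid given alone. Of the 36 tested members 30 lay below control and 6 above, where 20.7% of all genes lay above, with a median log2 fold change of -0.51 against -0.30 over all 15163 genes. With median-of-ratios scaling, which moved the median of all genes to 0.007, 22 of 36 lay below, and the median of the members was -0.17. The families lay alike, at medians of -0.52 for the 11 MMP, -0.52 for the 12 ADAMTS, -0.53 for the 4 TIMP and -0.40 for the 9 ADAM genes. Adamts1 was at a log2 fold change of -0.64 ± 0.21 (SE) and higher in 2 of 36 pairs of libraries, and Adamts9 at -1.34 ± 0.49, higher in 8. Adamts4 was at -0.79 ± 0.30, Adamts10 at -0.92 ± 0.41 and Adamts14 at -0.93 ± 0.42. Timp1 was at -1.69 ± 0.79 with 9 of 36 pairs higher, and Adam33 at -1.41 ± 0.57 with 6. Mmp24 (-1.62 ± 0.87), Adam17 (-0.52 ± 0.28) and Mmp19 (-0.52 ± 0.29) completed the 10.

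None of these passed. In limma 0 of 36 members had an adjusted p under 0.05, as did 0% of all genes, and the smallest adjusted p was 0.333. With weights estimated per library 27 of 36 members and 11434 of 15163 genes passed. These weights were low for the propionate libraries rich in Wt1 (replicate 3 at 0.127, replicate 4 at 0.181) and for control replicate 3 (0.26), poor in Wt1. That fit thus set mainly propionate libraries poor in Wt1 against control libraries rich in it, and acid and tissue make-up cannot be told apart there. Before adjustment 7 members were lower at p under 0.05 and 0 higher, against 9.13 and 0.435% of all genes. No member had groups without overlap, against 0.0132% of all genes higher and 0.0264% lower. Wt1 was at 254 TPM or more in 2 propionate libraries and 21.3 or less in the other 4. With 2 covariates for tissue make-up the fold change of Timp1 was -0.24, of Adamts9 -0.40, of Adam33 -0.41 and of Mmp24 0.08. Adamts1 kept -0.67 there, but had -0.30 after median-of-ratios scaling and -0.23 after quantile normalization.

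**Figure D4:**
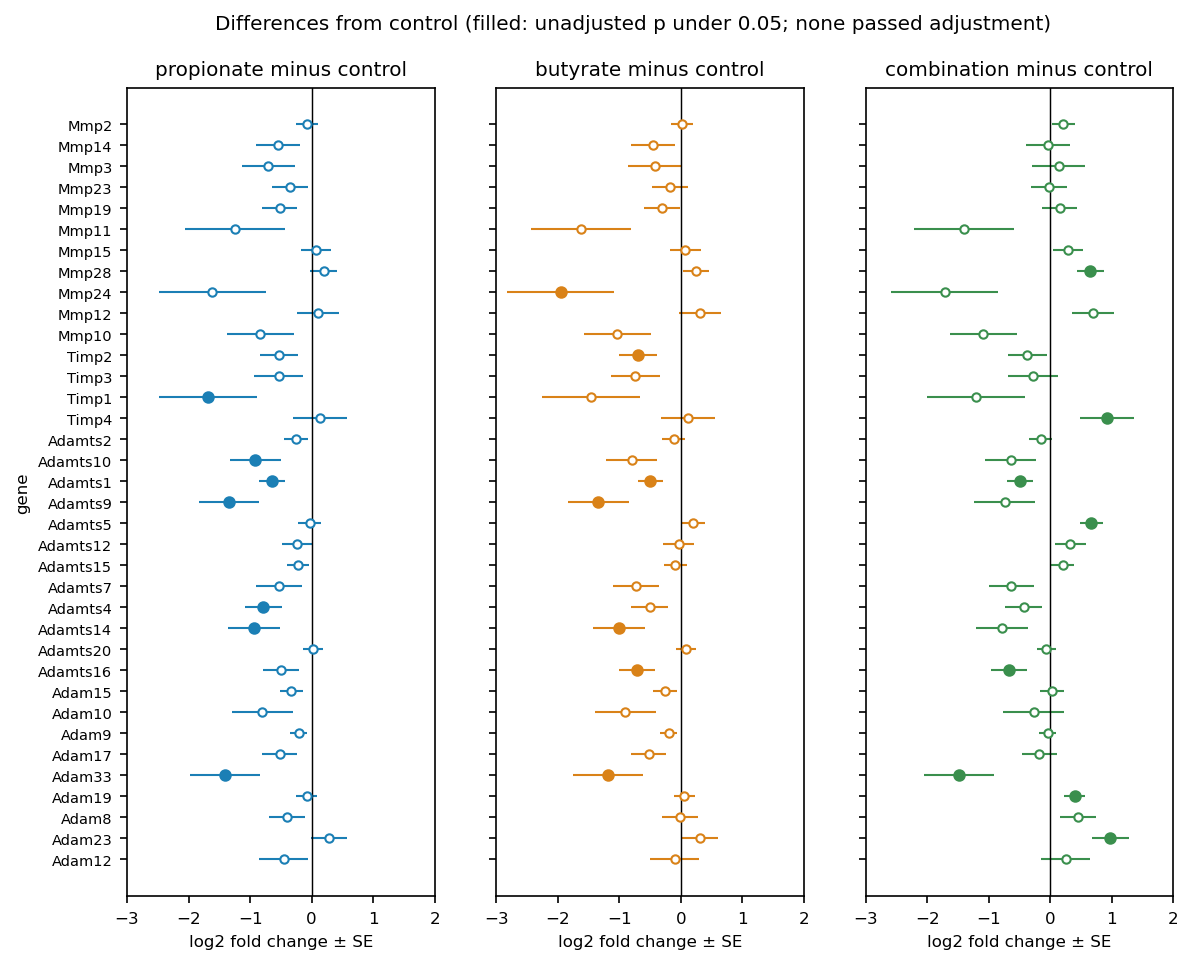
Points give the log2 fold change (x axis, on log2(TPM + 1), bars ± SE) of the 36 tested members (rows) in each treated group against control, 6 libraries a group. Filled points have an unadjusted p under 0.05 and none passed adjustment; Adamts1 and Adam33 lie left of 0 and filled in all 3 panels, which share the control libraries.

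Butyrate alone was tested in the same way. Here 27 of 36 members lay below control and 9 above, where 21.2% of all genes lay above, with a median of -0.36 against -0.38 over all genes; with median-of-ratios scaling 16 lay below, at a median of 0.07 against 0.007, and with quantile normalization 15. The median of the 4 TIMP genes was -0.72 and that of the 11 MMP genes -0.31. With median-of-ratios scaling these were -0.25 and 0.12, with quantile normalization -0.36 and 0.21, and with the tissue covariates 0.03 and 0.13. Timp2 averaged 133 ± 41 TPM against 218 ± 67.8 (SD, n = 6), a log2 fold change of -0.69 ± 0.31 (SE) with 4 of 36 pairs higher.

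Of the 10 members of smallest p with butyrate 6 were ADAMTS genes, which are 12 of the 36 tested. Adamts9 was at -1.35 ± 0.49, Adamts16 at -0.72 ± 0.29, Adamts14 at -1.0 ± 0.42 and Adamts1 at -0.50 ± 0.21 (SE). Adamts7 was at -0.73 ± 0.37 and Adamts10 at -0.80 ± 0.41. The membrane enzyme Mmp24 was at -1.95 ± 0.87, Mmp11 at -1.62 ± 0.81 and Adam33 at -1.18 ± 0.57. In limma 0 of 36 passed, as did 0% of all genes, with a smallest adjusted p of 0.115. At an unadjusted p under 0.05, 7 members were lower and 0 higher, against 35.1 and 1.19% of all genes, so the share of members was below that of all genes. None had groups without overlap, against 0.066% of all genes higher and 1.82% lower.

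This count changed with the libraries and the model. Without control replicate 3, the control library at 0.65 TPM of Wt1, 9 of 36 members passed in limma, all lower, and 5654 of 15163 genes in all. Of the 10 named members 8 were among them, at adjusted p = 0.0298 to 0.0421, Timp2 at -0.86 and Mmp11 at -2.21 among them. With the tissue covariates Timp2 was at -0.04, Mmp24 at -0.05 and Adamts10 at -0.02, while Mmp11 was at 0.15 and Adamts7 at 0.05. With all 24 libraries, a replicate block by description number gave 15 of 36 members and 7903 of 15163 genes. Weights per library gave 20 of 36 members and 10256 of 15163 genes. Adamts1 was at -0.52 with the covariates and at 0.03 with quantile normalization.

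For both acids together the members were split: 15 of 36 lay above control and 21 below, where 34.1% of all genes lay above, with a median of -0.05 against -0.12 over all genes, and with median-of-ratios scaling 19 lay above. Adamts5 had the smallest p. It averaged 6.87 ± 2.87 TPM against 3.77 ± 0.79 (SD, n = 6), a log2 fold change of 0.67 ± 0.19 (SE), and was higher in 33 of 36 pairs. Adam23 was at 0.98 ± 0.30 with 33 of 36 pairs higher, Mmp28 at 0.65 ± 0.21 with 32, and Adam19 at 0.40 ± 0.17 with 31. Timp4 was at 0.92 ± 0.44 and Mmp12 at 0.70 ± 0.34.

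Below control lay Adam33 at -1.48 ± 0.57, with 4 of 36 pairs higher, Adamts1 at -0.49 ± 0.21, Adamts16 at -0.67 ± 0.29 and Mmp10 at -1.09 ± 0.54 (SE). Adamts1 and its neighbour Adamts5 thus lay on opposite sides of control. In limma 0 of 36 passed, as did 0% of all genes, and the smallest adjusted p of a member was 0.240. With weights per library 15 of 36 members and 5786 of 15163 genes passed. Without adjustment 5 members were higher at p under 0.05 and 3 lower, against 6.20 and 4.10% of all genes. No member had groups without overlap, in either direction, against 0.633% of all genes higher and 0.112% lower.

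Combination replicate 5 was the highest library of its group for 15 of the 36 members, and for 48.6% of all tested genes. It held 11.5 TPM of Adamts5, 14.5 of Adam23, 5.66 of Mmp28 and 12.1 of Adam19. Without it the log2 fold changes were 0.52, 0.66, 0.49 and 0.24, each with the same sign. With the tissue covariates they were 0.36, 0.45, 0.22 and 0.25, and Timp4 was at 0.30. Adipocyte markers stood higher in combination, at a median sum of 397 TPM against 161 in control. Endothelial markers were at 159.9 against 103 and neutrophil markers at 37.1 against 11. Mesothelium markers stood lower, at 32.3 against 451, and 2 combination libraries were rich in Wt1 against 5 of control. Adamts5, Adam23, Mmp28 and Timp4 were among the members of lower median in libraries rich in Wt1, and Adam19 was not. The part of these cells in the result was not tested.

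**Figure D5:**
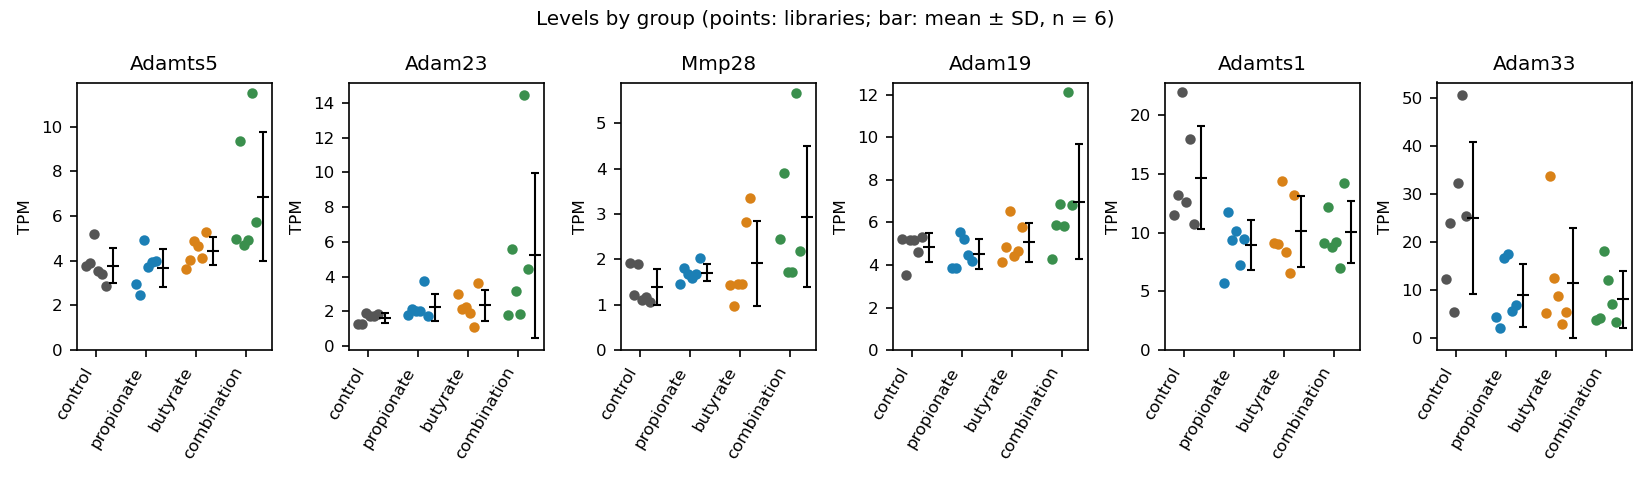
Points give the TPM (y axis) of 6 members in each library by group (x axis), with the mean ± SD of 6 libraries beside them. The combination group holds the highest library of Adamts5, Adam23, Mmp28 and Adam19, and the control group that of Adamts1 and Adam33.

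The combination was also set against each acid, which asks what the second acid added. Against propionate, 29 of 36 members lay above, as did 76.9% of all genes, at a median of 0.35 against 0.19. The 4 of smallest p were Adamts5 at 0.70 ± 0.19 (SE, higher in 35 of 36 pairs), Adam8 at 0.86 ± 0.29, Adam19 at 0.48 ± 0.17 and Adamts15 at 0.43 ± 0.18. Against butyrate, 32 of 36 lay above, as did 81.6% of all genes, but 19 with median-of-ratios scaling. Adamts5 was at 0.47 ± 0.19, Adam23 at 0.67 ± 0.30, Adam19 at 0.35 ± 0.17 and Mmp28 at 0.41 ± 0.21. Without combination replicate 5 these were 0.32, 0.35, 0.19 and 0.25. After quantile normalization they were 0.13, 0.38, 0.0004 and 0.16. No member passed in limma in either comparison (0% of all genes in both), with smallest adjusted p of 0.507 and 0.317. With weights per library 23 of 36 members and 5026 of 15163 genes passed against propionate, and 572 genes against butyrate. At an unadjusted p under 0.05, 8 members were higher against propionate and 2 against butyrate, and 0 were lower. Of all genes 8.43 and 14.6% were higher in this way, and 0.429 and 0.93% lower. No member had groups without overlap, against 0.138 and 0.686% of all genes higher and 0.0066 and 0.0528% lower.

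Butyrate and propionate, which differ by 1 carbon in chain length, were compared directly. With butyrate 24 of 36 members lay above propionate, where 29.7% of all genes did. No member passed in limma (0% of all genes), with 0 at an unadjusted p under 0.05 in either direction (0.165% of all genes higher and 0.541% lower), and none had groups without overlap (0.0264% and 0.0462%). The 4 of smallest p were Adam8 at 0.38 ± 0.29, Adamts5 at 0.23 ± 0.19, Adamts4 at 0.28 ± 0.30 and Adam12 at 0.35 ± 0.39 (SE, n = 6 per group). Their 95% intervals were -0.22 to 0.99, -0.16 to 0.62, -0.34 to 0.90 and -0.47 to 1.17. A difference was not detectable, which does not show that the acids act alike.

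The interaction, the difference of combination and propionate minus that of butyrate and control, asked whether the acids together departed from the sum of their single effects. It was above 0 for 35 of 36 members, as for 83.7% of all genes, at a median of 0.72 against 0.62. With median-of-ratios scaling it was above 0 for 24, at 0.22 against 0.03. Adamts9 was at 1.95 ± 0.70, Mmp19 at 0.98 ± 0.41, Adam15 at 0.61 ± 0.27 and Adamts1 at 0.65 ± 0.30 (SE). Adam15 was at -0.09 and Adamts1 at -0.01 with median-of-ratios scaling. In limma 0 of 36 passed, as did 0% of all genes, with a smallest adjusted p of 0.128, and at an unadjusted p under 0.05 6 members were higher and 0 lower, against 34.8 and 0.95% of all genes. Without propionate replicate 3, 11 of 36 members and 5619 of 15163 genes passed. With the block by description number 9 of 36 members and 5426 of 15163 genes passed, and with weights per library 30 members and 10982 genes.

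Genes that work with these enzymes were read from lists of activators, inhibitors, maturation partners, relatives and substrates. No gene of any of the 7 lists passed in limma in the 3 comparisons with control. Among 9 tested activators of MMPs and related proteins, Bsg, an inducer of MMPs, was at -0.41 ± 0.13 with butyrate, beside a median of -0.38 over all genes. It was higher in 0 of 36 pairs, and 1.82% of all genes lay lower without overlap in this comparison. The proprotein convertase gene Furin, whose product activates membrane MMPs and ADAMs, was at -0.80 ± 0.29 with butyrate, and Lcn2 at -1.94 ± 0.82. In combination the plasminogen activator gene Plau was at 0.44 ± 0.16 with 34 of 36 pairs higher and Pcsk6 at 0.53 ± 0.22. At an unadjusted p under 0.05, 4 of the 9 were lower with butyrate, and 2 were higher and 1 lower in combination, beside 35.1%, 6.20% and 4.10% of all genes.

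Maturation partners of ADAM10 and ADAM17 were read next. Of 8 tested, 8 lay below control with butyrate, at a median of -1.08 against -0.38 over all genes, and 7 with propionate, at -0.83 against -0.30. Of all genes 21.2% lay above control with butyrate and 20.7% with propionate. Frmd8 was at -1.55 ± 0.60 with butyrate and the inactive rhomboid gene Rhbdf2, which carries ADAM17 to the cell surface, at -1.61 ± 0.65. Before adjustment 6 of the 8 were lower at p under 0.05 with butyrate, 1 with propionate and 0 in combination, beside 35.1, 9.13 and 4.10% of all genes. The part of tissue make-up in these values was not tested.

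Inhibitors, relatives and substrates were read in the same way. Reck, a membrane inhibitor of MMPs, was at 0.31 ± 0.15 in combination. Of 6 ADAMTS-like genes, Adamtsl2 was at -0.64 ± 0.19, -0.52 ± 0.19 and -0.67 ± 0.19 in the 3 comparisons with control, which share the control libraries. Among other matrix proteases, the heparanase gene Hpse was at 0.90 ± 0.28 and Dpp4 at 0.74 ± 0.26 in combination, both higher in 35 of 36 pairs. Combination replicate 5 stood far above the rest of its group for these genes and Reck. It held 19.7 TPM of Hpse, 19.9 of Dpp4 and 9.95 of Reck, where the next combination library held 7.92, 7.51 and 5.91. Of 12 tested ADAM substrates, Cd44 was at -1.16 ± 0.47 and App at -0.80 ± 0.33 with butyrate, and Hbegf, a ligand of the EGF receptor, at -0.63 ± 0.30 with propionate and -0.76 ± 0.30 in combination. Of the 12, 6 were lower with butyrate at an unadjusted p under 0.05, beside 35.1% of all genes. Of 5 tested ADAMTS substrates, Fbn2 was at -0.79 ± 0.31 with propionate and Vcan, which encodes versican, at -0.49 ± 0.31.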

How the data were processed

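RNA was measured in 24 peritoneal samples. TRIzol extracts were made into stranded mRNA libraries, per the labels' protocols. The submitters' processing notes name fastp, HISAT2, StringTie and the build mm39. How strand was used in counting, and which annotation, is not stated in these sources. Per the file headers, the table deposited by the authors gives TPM for 149132 transcripts without transcript identifiers. Each deposited TPM column sums to 1000000, so abundant muscle RNA lowers other values, and depth is unknown. Here TPM was summed by gene name, leaving out 1001 unnamed transcripts (0.174 to 0.470% of TPM).

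Genes with at least 1 TPM in at least 6 libraries (15163) were analysed as log2(TPM + 1) with limma 3.58.1 in R 4.3.3 (trend, robust), all 24 libraries in 1 fit and 7 comparisons. P-values are two-sided with Benjamini-Hochberg adjustment over 15163 genes, at a threshold of 0.05. The fit was run on simulated data with independent noise, mostly smaller than the spread of the real groups, so this does not show how it performs here. Members, lists and the naming rule were chosen with earlier results of these data known. The rule named every member past the threshold or, where fewer passed, the 10 (comparisons with control) or 4 (others) of smallest unadjusted p, and up to 3 per partner list. Levels of 30 listed members were always described. One MMP gene is not reported here. Non-overlap and library splits are descriptions. Alternatives were another pseudocount (0.1), no filter, a filter of 5 TPM, 2 scalings, library weights, replicate blocks, compared groups only, plain moderation, tissue covariates and leaving out each library. The tissue covariates were the first 2 principal components of 5 marker list scores (muscle, mesothelium, fat, exocrine pancreas, ovary).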

Additional observations from a re-analysis of the deposited data

Results flagged for a closer look

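Of 140 groups of 6 libraries (35 genes in 4 groups), 11 held a library whose gap to the nearest other was an unusually large part of the group's range by Dixon's test on the log2(TPM + 1) scale, where chance gives about 1 in 20. Control replicate 3, at 0.65 TPM of Wt1, was the lowest control library by such a gap for Adam12 (0.51 TPM, next 1.35), Adamts7 (0.63, next 2.67), Mmp11 (2.42, next 21.7), Mmp24 (0.02, next 5.94) and Timp1 (6.80, next 36.9). Control replicate 2, the library richest in Wt1, was lowest for Adam19 (3.54 TPM, next 4.61), and control replicate 1 highest for Mmp12 (2.24, next 0.73). Propionate replicate 5 was highest for Adam23 (3.76 TPM, next 2.11). Butyrate replicate 3 was highest for Adam12 (4.47 TPM, next 1.14) and butyrate replicate 2 lowest for Mmp15 (4.15, next 5.68). Combination replicate 1 was lowest for Adam9 (21.9 TPM, next 25.8).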

How the results depend on the processing

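Weights estimated per library changed the most. Of 15163 genes, 11434, 10256, 5786, 5026, 572 and 10982 passed for propionate, butyrate and combination against control, combination against propionate and against butyrate, and the interaction. Of 36 members, 27, 20, 15 and 23 passed in the first 4 and 30 in the interaction. Propionate replicate 3 was weighted 0.127, propionate replicate 4 0.181, combination replicate 5 0.126 and control replicate 3 0.26, and the highest weight was 6.76. The other treated libraries rich in Wt1, butyrate replicate 2 and combination replicates 3 and 4, were weighted 0.461, 0.471 and 0.604. Low weights thus fell on libraries whose Wt1 was unlike that of most of their group, and acid and tissue make-up cannot be told apart in these counts. For combination against control, median-of-ratios scaling gave 46 genes, quantile normalization 41 and tissue covariates 104, with 0 members in each. The samples share replicate numbers, but the correlation of deviations of same-numbered libraries ranged from -0.865 to 0.737 over 36 pairs by title and from -0.395 to 0.699 over 27 pairs by library description, and 3 of 24 libraries correlated best with their own title number. A replicate block by title number gave 0 genes in each comparison. A replicate block by description number gave 7903 of 15163 genes and 15 of 36 members with butyrate, 5426 and 9 in the interaction, and 5 genes for combination against butyrate.

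The median of the tested members moved beyond 1 SD between libraries (0.473) to -0.0252 with tissue covariates for propionate and to 0.12 with quantile normalization for butyrate. For the interaction it moved to 0.22 with median-of-ratios scaling, 0.18 with quantile normalization, 1.27 with library weights and 0.0672 with tissue covariates. Signs turned for Mmp24 with propionate (0.0829) and Mmp11 and Adamts7 with butyrate (0.15 and 0.0453), all with tissue covariates, and for Adamts1 with butyrate under quantile normalization (0.0262). In the interaction Adam15 and Adamts1 turned to -0.088 and -0.0079 with median-of-ratios scaling and to -0.0602 and -0.13 with quantile normalization. The cause was not tested.

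Leaving out 1 library at a time, 0 to 5654 of 15163 genes and 0 to 9 of 36 members passed for butyrate against control. For the interaction 0 to 5619 genes and 0 to 11 members passed. Combination gave 0 to 2 genes against control (2 without combination replicate 6) and 0 to 1 against butyrate (1 without butyrate replicate 6 or combination replicate 6), with 0 members. In the other 3 comparisons 0 genes passed. The median of the members ranged from -0.66 to -0.37 for propionate, -0.50 to -0.21 for butyrate and -0.14 to -0.03 for combination against control. It ranged from 0.22 to 0.47 and 0.22 to 0.41 for combination against propionate and butyrate, -0.02 to 0.20 for butyrate against propionate and 0.60 to 0.91 for the interaction. TPM keeps no depth, so values under 1 TPM are of unknown precision.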

Other observations

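Members below the filter also differed between libraries. Mmp25, a membrane MMP of leukocytes, reached 3.15 TPM in combination replicate 5 and 2.06 and 1.95 in combination replicates 3 and 4, against 1.51 or less in all other libraries. Mmp27 reached 2.38 TPM and Adam11, which lacks the catalytic site, 2.68 in combination replicate 5, and Adamts6 was at 2.65 there. Adamts8 was highest in butyrate replicate 2, at 2.38 TPM.

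Some members overlap other genes in the older annotation, and counting by strand is not stated. Timp1, Timp3 and Timp4 overlap the synapsin genes Syn1, Syn3 and Syn2 on the opposite strand, which did not exceed 0.94, 0.67 and 5.88 TPM. Mmp11 overlaps Chchd10, at 103 to 365 TPM. The antisense transcript gene Mmp24os1 was at 18.5 to 113 TPM. For Adam10, Adam9, Timp3, Adamts1 and Mmp14 a single transcript row held 97.3 to 99.8% of the summed TPM and led in all 24 libraries. For Adamts10 the leading row of 15 held 20.9% and for Timp1 the leading row of 2 held 55.8%.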
